A study of Schmidtea mediterranea with 24 samples.

Results

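RNA levels of markers of epidermal, muscle and neural cells were measured in the tail of the planarian *Schmidtea mediterranea*. The 4 marker transcripts were agat-1 (dd_Smed_v6_920_0_1) for late epidermal progenitors, colF-2 (dd_Smed_v6_702_0_1) for muscle, pc2 (dd_Smed_v6_1566_0_1) for neurons and chat (dd_Smed_v6_6208_0_1) for cholinergic neurons. They were chosen by identifier and are 4 of 28742 transcripts in the count table. All 4 passed the filter on low counts, which kept 21149 transcripts. The gene names are those these identifiers carry in planarian work. The deposited files give identifiers without names, and the names were not checked against sequence here.

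All animals were wild type asexual worms of the clonal line CIW4, starved for 7 days. The 3 groups were EV-injected tails, buffer-injected tails and uninjected tails, with 4 biological replicates in each and 5 tail fragments in a replicate. EVs (extracellular vesicles, membrane-bound particles that cells release) came from tissue fragments taken 12 hours after amputation. EVs or buffer alone went into the tail with a fluorescent dextran, and animals with little dextran after recovery were dropped. Injected tails were collected 24 hours after injection. The tissue was the region behind the pharynx without about 10% at the tip. Uninjected animals went through neither the injection nor the selection on dextran, and these cannot be told apart in comparisons with them.

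Planarians renew every tissue from dividing stem cells called neoblasts. The epidermis is fed by non-dividing progenitors that pass through successive stages while they move outwards, and agat-1, which encodes a protein related to arginine:glycine amidinotransferases, marks a late stage. Planarian muscle makes much of the animal's collagen, including the fibrillar collagen encoded by colF-2. The gene pc2 encodes a prohormone convertase, which cuts neuropeptide precursors in neurons, and chat encodes choline acetyltransferase, which makes the neurotransmitter acetylcholine.

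Library totals ran from 19621187 to 30903133 counts. Every marker was well covered in all 12 libraries. The lowest count of any of them was 780, for chat in uninjected replicate 4, and the highest was 32110, for colF-2 in buffer-injected replicate 3. Counting error alone was 0.558% to 1.35% of a value for colF-2 and agat-1, and 2.07% to 3.58% for pc2 and chat. Levels are given as CPM (counts per 1000000 counts) scaled by TMM, which corrects for differences in library composition. A transcript was called changed at a Benjamini-Hochberg adjusted p under 0.05 in edgeR's quasi-likelihood test over all tested transcripts. In these bulk samples, a change in the number of cells of a type and a change in RNA per cell cannot be told apart, for rises and falls alike. The labels call the replicates biological and do not say whether they came from separate cultures, so p-values measure the spread between these samples.

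The epidermal marker agat-1 was higher in all 8 injected libraries than in any uninjected library. It stood at 425, 429, 450 and 468 CPM in EV-injected tails, at 388, 388, 436 and 406 CPM in buffer-injected tails, and at 343, 319, 306 and 290 CPM in uninjected tails. The lowest injected value, in buffer-injected replicate 2, lay above the highest uninjected value, in uninjected replicate 1. Of all tested transcripts, 26.4% did not overlap between EV-injected and uninjected tails and 23.8% between buffer-injected and uninjected tails. Group means were 443 ± 19.8 CPM with EVs, 404 ± 22.8 CPM with buffer and 315 ± 22.3 CPM without injection (SD, n = 4 each).

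In EV-injected against uninjected tails agat-1 rose by 0.49 ± 0.06 on the log2 scale (SE, edgeR adjusted p = 3.01e-06), or 1.41-fold with a 95% interval of 1.30 to 1.53. Of all tested transcripts, 25.8% were called in that comparison (13.9% higher and the rest lower), and 5.03% had a higher log2 fold change than agat-1. In buffer-injected against uninjected tails it rose by 0.36 ± 0.06 (SE, edgeR adjusted p = 0.000107), or 1.28-fold with an interval of 1.19 to 1.39, where 22% of tested transcripts were called (12.4% higher and the rest lower), and 8.19% had a higher log2 fold change than agat-1. The uninjected libraries serve both comparisons. Both rises held with each of the 12 libraries left out in turn, at 0.46 to 0.54 with EVs and 0.32 to 0.41 with buffer.

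Between EV-injected and buffer-injected tails agat-1 was not called. EV-injected libraries had 425 to 468 CPM and buffer-injected libraries 388 to 436 CPM, so the groups overlapped: EV-injected replicates 1 and 2 lay below buffer-injected replicate 3. It differed by 0.13 ± 0.06 on the log2 scale (SE, edgeR adjusted p = 0.419, unadjusted p = 0.028), a fold of 1.10 with an unadjusted 95% interval of 1.01 to 1.19. The log2 fold change was 0.17 without buffer-injected replicate 3 and 0.10 without EV-injected replicate 4, with edgeR adjusted p of 0.33 and 0.641. For agat-1, the order of levels was thus EV-injected, buffer-injected and uninjected, of which the first pair is not shown to differ.

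**Figure D1:**
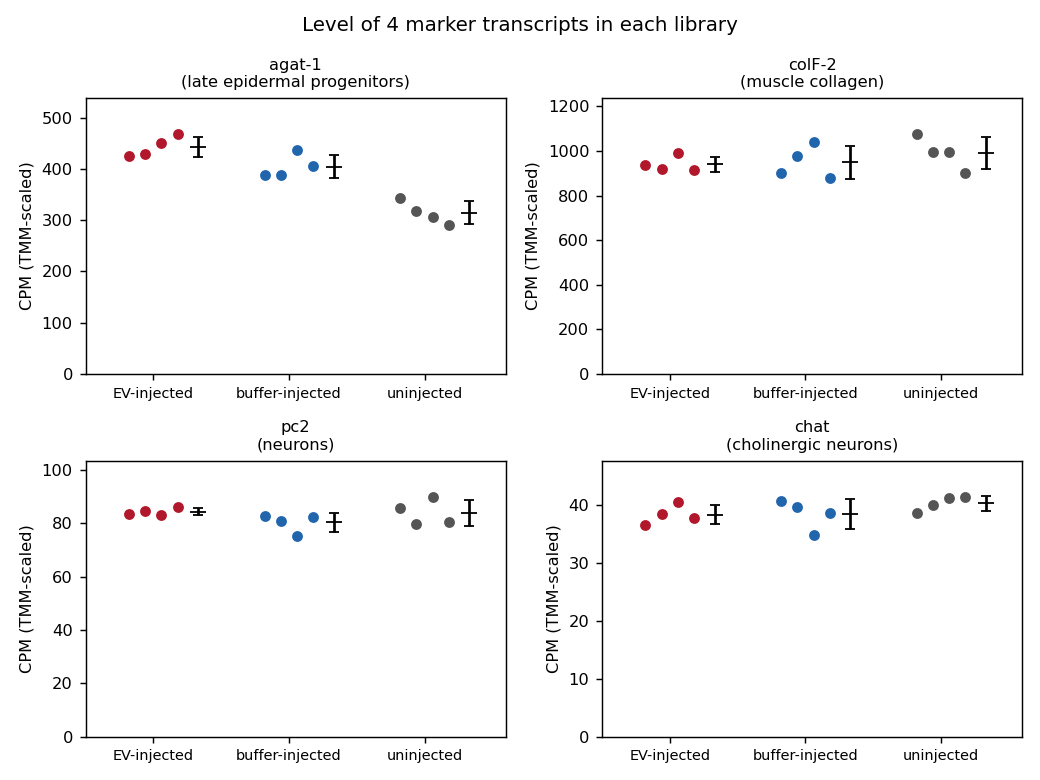
Level of each marker transcript in CPM (TMM-scaled, linear axes from 0) in every library of the 3 groups; points are libraries in the order of their replicate numbers, and the bar beside them is the mean ± SD (n = 4). The 8 injected libraries lie at 388 to 468 CPM for agat-1, above the uninjected libraries at 290 to 343 CPM, while the groups overlap against uninjected tails for the other 3 markers.

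The muscle marker colF-2 had the most counts of the 4 and was not called in any comparison. Its level was 937, 918, 989 and 914 CPM in EV-injected tails, 903, 975.4, 1040 and 879 CPM in buffer-injected tails, and 1076, 996, 996 and 900 CPM in uninjected tails. The 3 groups overlapped, and the highest and the second lowest of all 12 values were both in uninjected tails. For colF-2 the fit gave a log2 fold change of −0.08 ± 0.06 with EVs and −0.06 ± 0.06 with buffer against uninjected tails (SE, edgeR adjusted p = 0.389 and 0.519). Between EV-injected and buffer-injected tails it was −0.01 ± 0.06 (SE, edgeR adjusted p = 0.97). The 95% intervals allow folds of 0.867 to 1.03 for EV-injected against uninjected, 0.876 to 1.05 for buffer-injected against uninjected and 0.906 to 1.08 for EV-injected against buffer-injected tails. Against uninjected tails, the rises of agat-1 lay outside both intervals of colF-2.

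The neuronal marker pc2 stood at 83.4, 84.6, 83.1 and 86.1 CPM in EV-injected tails, 82.9, 81.0, 75.2 and 82.4 CPM in buffer-injected tails, and 85.8, 79.6, 90.0 and 80.4 CPM in uninjected tails. All 4 EV-injected values were above all 4 buffer-injected values, though the smallest gap, between EV-injected replicate 3 and buffer-injected replicate 1, was less than the counting error of either library. Groups failed to overlap in that comparison for 4.9% of all tested transcripts. The log2 fold change of pc2 between EV-injected and buffer-injected tails was 0.07 ± 0.05 and did not pass the test (SE, edgeR adjusted p = 0.662), with a fold of 1.05 and an interval of 0.981 to 1.12. Against uninjected tails it was 0.01 ± 0.05 with EVs and −0.06 ± 0.05 with buffer (SE, edgeR adjusted p = 0.943 and 0.377). Those intervals run from 0.939 to 1.08 and from 0.894 to 1.02 as folds.

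The cholinergic marker chat was the scarcest of the 4. Its level was 36.7, 38.6, 40.6 and 37.9 CPM in EV-injected tails, 40.7, 39.7, 34.9 and 38.6 CPM in buffer-injected tails, and 38.7, 40.1, 41.3 and 41.5 CPM in uninjected tails. Of the EV-injected libraries 3 lay below every uninjected library, and EV-injected replicate 3 did not. For EV-injected replicates 2 and 4, the gap to uninjected replicate 1 was less than the counting error of each of these libraries. Log2 fold changes of chat against uninjected tails were −0.07 ± 0.05 with EVs and −0.07 ± 0.05 with buffer (SE, edgeR adjusted p = 0.36 and 0.384). Their intervals as folds were 0.881 to 1.03 with EVs and 0.882 to 1.03 with buffer. Between EV-injected and buffer-injected tails the log2 fold change was −0.00079, with an interval of 0.926 to 1.08 as a fold and an edgeR adjusted p of 0.999.

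Counted over the markers, 1 of 4 was called in EV-injected against uninjected tails, where 25.8% of all tested transcripts were called and 13.9% were called higher. In buffer-injected against uninjected tails it was also 1 of 4, where 22% were called and 12.4% were called higher. Neither share of the 4 stands apart from its background. Among transcripts at least as abundant as chat the background was 50.2% and 44.6%. Between EV-injected and buffer-injected tails 0 of 4 markers were called, against 0.0993% of all tested transcripts (0.0426% higher, and 0.278% of those at least as abundant as chat), and agat-1 was the only marker with an unadjusted p under 0.05 there. The median log2 fold change of the 4 was −0.03 with EVs and −0.06 with buffer against uninjected tails, and 0.03 between the injected groups, with medians over all tested transcripts of 0.0026, −0.0039 and −0.0031.

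**Figure D2:**
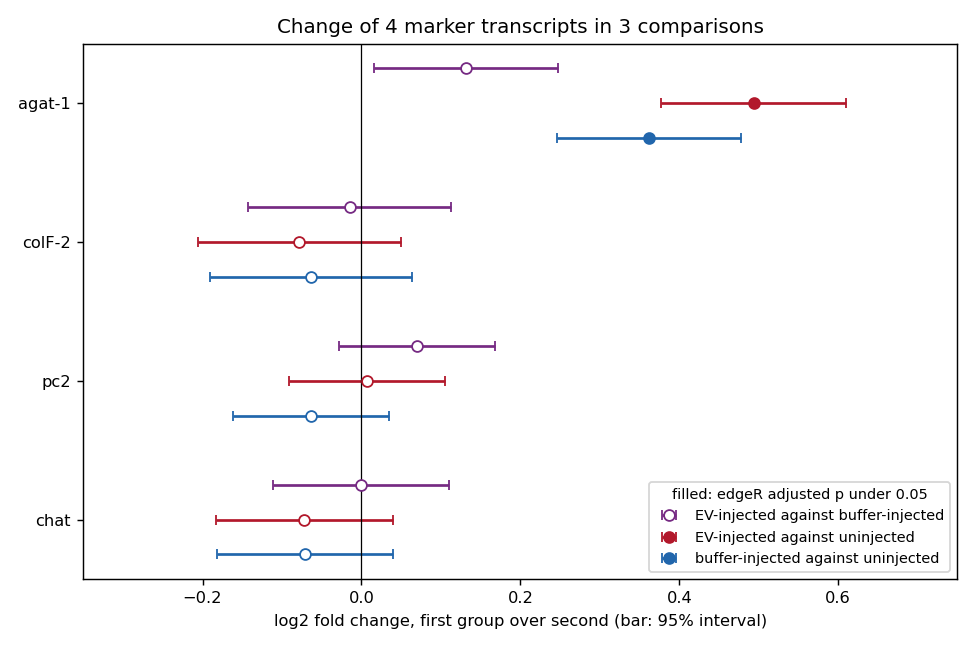
Log2 fold change of the 4 markers from edgeR in 3 comparisons, first-named group over second; points are estimates, bars are 95% intervals, and filled points have an adjusted p under 0.05. Only agat-1 against uninjected tails is filled, at 0.49 with EVs and 0.36 with buffer, and the intervals of the other 3 markers cross 0 in all 3 comparisons.

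Ratios of 2 markers within a library need no scaling between libraries. The log2 ratio of agat-1 to colF-2 counts averaged −1.09 ± 0.08 in EV-injected, −1.23 ± 0.09 in buffer-injected and −1.66 ± 0.03 in uninjected tails (SD, n = 4 each). It was higher than in uninjected tails by 0.57 with EVs and by 0.43 with buffer. Over pc2 and over chat, agat-1 was higher by 0.49 and 0.57 in EV-injected and by 0.42 and 0.43 in buffer-injected than in uninjected tails. In these 6 comparisons the groups did not overlap. Each had an exact permutation p of 0.0286 (two-sided), the smallest that 4 against 4 libraries allows. All 6 share agat-1 and the same 4 uninjected libraries, so they repeat its rise and are not 6 separate results. Of single transcripts, 26.4% with EVs and 23.8% with buffer did not overlap with uninjected tails either, and the share among other ratios was not computed. Over all 18 comparisons of ratios the adjusted p of these 6 was 0.0857 (exact permutation test), so none of the 18 passed. Because p cannot go under 0.0286, only 6 of 18 tests at that value could not pass at any size of difference. The adjusted test therefore does not decide whether these ratios differ.

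Among the other 3 markers the ratios moved little. The log2 ratio of pc2 to chat, the neuronal pair, was 1.13 ± 0.07 in EV-injected, 1.06 ± 0.04 in buffer-injected and 1.05 ± 0.10 in uninjected tails (SD, n = 4 each). The largest difference for this pair was 0.08, between EV-injected and uninjected tails (exact permutation test, two-sided, p = 0.2, adjusted p = 0.374). The log2 ratio of colF-2 to chat differed by at most 0.01 in size between any groups, with an exact permutation p of 0.943 or more. Its SD was 0.04 in EV-injected, 0.19 in buffer-injected and 0.15 in uninjected tails (n = 4 each), so a small difference could be missed. For colF-2 over pc2 the difference was −0.08 in EV-injected against either buffer-injected or uninjected tails, with exact permutation p of 0.457 and 0.229.

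Per length of transcript, agat-1 and colF-2 were the more abundant pair, and their order differed between injected and uninjected tails. With EVs, agat-1 had 310 ± 13.9 and colF-2 229 ± 8.37 CPM per 1000 bases. With buffer the values were 283 ± 15.95 for agat-1 and 231 ± 17.7 for colF-2, and without injection 220 ± 15.6 for agat-1 and 241 ± 17.5 for colF-2 (SD, n = 4 each). The log2 ratio of these levels was above 0 in 4 of 4 EV-injected libraries, at 0.39 to 0.56, and in 4 of 4 buffer-injected libraries, at 0.20 to 0.41. It was above 0 in 0 of 4 uninjected libraries, where it ran from −0.17 to −0.11. How evenly reads cover each transcript was not tested.

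**Figure D3:**
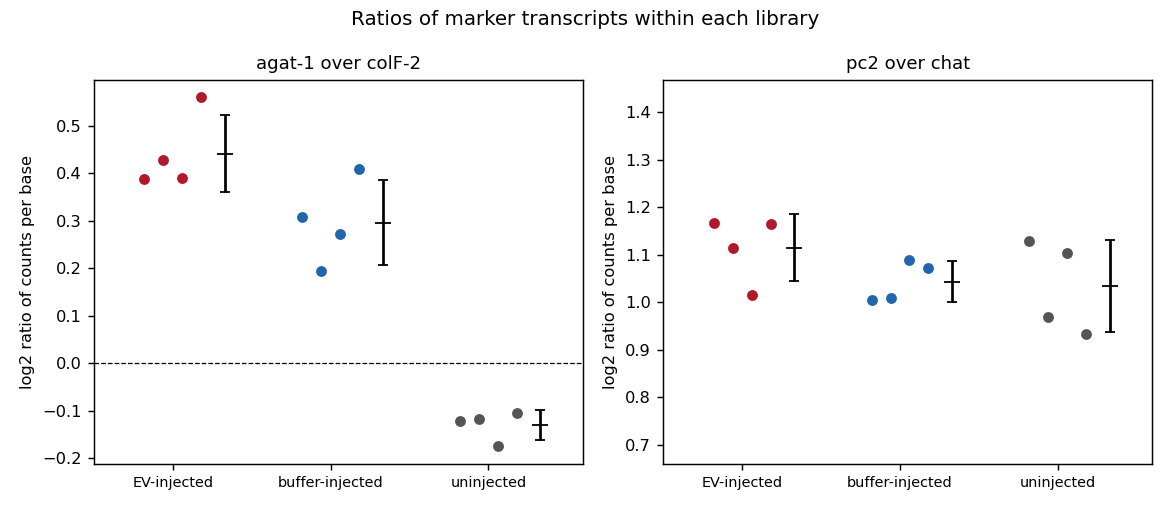
Log2 ratio of counts per base of transcript for agat-1 over colF-2 (left) and pc2 over chat (right) in each library; points are libraries, the bar is mean ± SD (n = 4), and both axes span the same range. The left ratio lies above 0 in the 8 injected libraries and below 0 in the 4 uninjected ones, while the right ratio overlaps between all 3 groups.

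The neuronal pair was less abundant per length. In EV-injected, buffer-injected and uninjected tails pc2 had 32.1 ± 0.509, 30.6 ± 1.34 and 32.0 ± 1.86 CPM per 1000 bases, and chat had 14.9 ± 0.638, 14.9 ± 0.982 and 15.6 ± 0.502 (SD, n = 4 each). The order of all 4 markers per length was agat-1, colF-2, pc2 and chat in injected tails, and differed in uninjected tails only in that colF-2 came before agat-1. Averaged over all libraries, agat-1 and colF-2 were above 97.9% and 97.6% of tested transcripts per length, pc2 above 83.3% and chat above 69.6%.

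Spread between libraries of a group was small for all 4. The coefficient of variation of CPM ran from 1.59% for pc2 in EV-injected tails to 7.68% for colF-2 in buffer-injected tails. For pc2 with EVs it was under the median counting error of 2.23%, and for chat without injection, at 3.21%, it was about as large as the counting error of 3.23%. The spread of colF-2 and agat-1 was at least 3.66%, where counting error was at most 1.35%. In buffer-injected replicate 3, the largest library, agat-1 and colF-2 had their highest and pc2 and chat their lowest buffer-injected level. The 2 sequencing runs of a library gave log2 ratios of run 1 to run 2 of −0.07 to 0.04 for agat-1, −0.15 to −0.04 for colF-2, −0.16 to 0.00224 for pc2 and −0.33 to 0.23 for chat.

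A further transcript, dd_Smed_v6_1566_1_1, has the component number of pc2 in its identifier. The files give it no name, and whether it belongs to the same gene or shares reads with pc2 was not tested. It stood at 89.6, 91.3, 89.6 and 90.0 CPM in EV-injected tails, 95.5, 88.6, 92.0 and 88.1 CPM in buffer-injected tails, and 83.4, 82.8, 82.5 and 83.3 CPM in uninjected tails. All 8 injected values lay above all uninjected values, where 26.4% of tested transcripts with EVs and 23.8% with buffer did not overlap with uninjected tails.

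Unlike pc2, dd_Smed_v6_1566_1_1 was called higher in both comparisons with uninjected tails. It rose by 0.12 ± 0.04 on the log2 scale with EVs and 0.13 ± 0.04 with buffer (SE, edgeR adjusted p = 0.0263 and 0.0159). Of all tested transcripts 13.9% and 12.4% were called higher in these comparisons, and 31.7% and 27.6% had a higher log2 fold change than this one. The call of 1 transcript and not of the other does not test their difference. These calls are narrow. With EVs the call ended without EV-injected replicate 2, 3 or 4 and without uninjected replicate 2 or 3, where edgeR adjusted p was 0.0501 to 0.0619, and with buffer it ended without buffer-injected replicate 1 (edgeR adjusted p = 0.0602). Its coefficient of variation in uninjected tails, 0.523%, was below the counting error of 2.24%.

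The log2 ratio of dd_Smed_v6_1566_1_1 to pc2 was 0.10 ± 0.02 in EV-injected, 0.18 ± 0.09 in buffer-injected and −0.01 ± 0.09 in uninjected tails (SD, n = 4 each). It exceeded the uninjected ratio by 0.11 with EVs and 0.19 with buffer, without overlap (exact permutation test, two-sided, p = 0.0286 each, the smallest possible, adjusted p = 0.0429 over 3 tests). These 3 tests were added after the values were seen. The smallest gap with EVs was from 0.064 in EV-injected replicate 4 to 0.057 in uninjected replicate 2. This gap was less than the counting error of either transcript in those libraries. With run 1 alone the adjusted p was 0.214 and 0.171, and with run 2 alone 0.171 and 0.171 (exact permutation tests), so neither difference passed in a single run. With group medians in place of means it was 0.0857 and 0.0857 (exact permutation tests). Exchanging the closest libraries of separated groups leaves both medians unchanged. The test on medians therefore could not pass at any size of difference and does not decide.

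**Figure D4:**
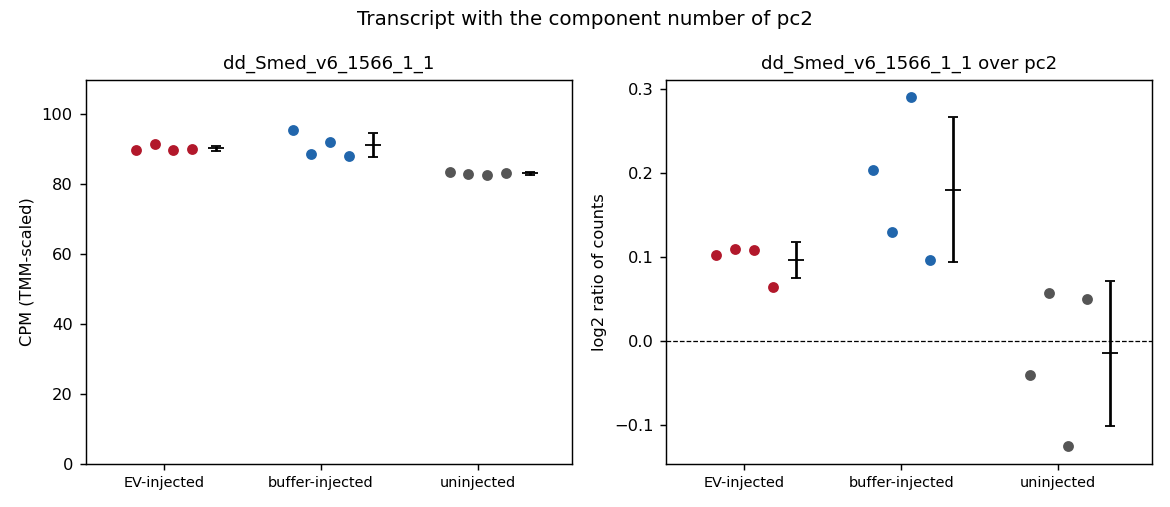
Level of dd_Smed_v6_1566_1_1 in CPM (left, linear axis from 0) and the log2 ratio of its counts to those of pc2 (right) in each library; points are libraries and the bar is mean ± SD (n = 4). Injected libraries lie at 88.1 to 95.5 CPM against 82.5 to 83.4 CPM in uninjected ones. Every injected ratio lies above every uninjected one, though the closest of them differ by less than counting error.

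For each marker, the tested transcript with the most similar pattern was found over the 12 libraries, among 17589 transcripts with a mean log2 CPM of at least 0. Likeness was the root mean square difference of log2 CPM after centring each transcript on its own mean. For agat-1 it was dd_Smed_v6_899_0_1, with a difference of 0.0422, against a median of 0.267 over all candidates. That transcript had 501 ± 27.5 CPM in EV-injected, 459 ± 21.3 CPM in buffer-injected and 347 ± 13.3 CPM in uninjected tails (SD, n = 4 each). Its order of groups was that of agat-1, which follows from the way it was chosen in these same libraries. For colF-2 it was dd_Smed_v6_740_0_1, with a difference of 0.0193 against a median of 0.181. Its level was 984 ± 37.1, 994 ± 77.8 and 1027 ± 83.8 CPM in EV-injected, buffer-injected and uninjected tails (SD, n = 4 each).

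For pc2 and chat the closest transcripts were dd_Smed_v6_13650_0_1 and dd_Smed_v6_6584_0_1, with differences of 0.0376 and 0.0396 against medians of 0.169 and 0.172. With Pearson correlation as the measure, agat-1 and colF-2 kept these partners, while pc2 and chat had others. The 12 libraries include the 3 groups and share their scaling, and a similar pattern is given here as a description only.

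The authors' deposited table holds all 4 markers. In the authors' deposited table agat-1 has log2 fold changes of 0.49 for EV-injected and 0.36 for buffer-injected against uninjected tails, with adjusted p of 4.63e-06 and 0.00014. For EV-injected against buffer-injected tails the authors' deposited table gives agat-1 0.13 with an adjusted p of 0.384. The authors' deposited table calls none of colF-2, pc2 and chat in any of its 3 comparisons, with adjusted p of 0.293 or more. It does call dd_Smed_v6_1566_1_1 higher against uninjected tails, by 0.11 with EVs and 0.13 with buffer (log2, edgeR adjusted p = 0.022 and 0.0131). These values come from the same libraries, also with edgeR, and are not an independent check.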

How the data were processed

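RNA was sequenced from poly-A selected libraries in 2 runs per library. The authors deposited raw counts by transcript, separately by run and merged, with no normalization and with transcript lengths. The tools were FastQC 0.11.5, Bowtie2 2.3.1, featureCounts of Subread 1.6.3 and edgeR 4.0.16 per the submitters' processing notes, with BBDuk named in the design text. How strand and multiply mapping reads were handled is not stated in the sources used here, so counts are uncertain for transcripts with shared sequence. The authors' deposited table of 3 comparisons holds log2 values (fold change and mean CPM), an F score, and p-values with adjusted p-values, per the file headers.

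Runs were summed, 12 libraries in all, and the sums equalled the deposited merged counts in all 344904 cells. The mean chi-square per transcript was 1.50 to 1.95 between runs of a library and 4.33 to 18.5 between libraries of a group, so none was treated as a repeat. The test was edgeR 4.0.16 under R 4.3.3 (filterByExpr, TMM, quasi-likelihood F test, 1 model over 12 libraries, no covariate), which kept 21149 transcripts. SEs came from the F statistic. Ratios were tested with exact permutation tests in scipy 1.17.1. The edgeR fit was tried on simulated counts, and the permutation test on small made-up examples. Alternatives were other scalings, filters and tools (DESeq2 1.42.0, limma 3.58.1), the 8 libraries compared, a replicate block, each run alone and each library left out. The labels do not say that a replicate number marks a shared origin, and libraries were not paired. The markers, lists and tests were chosen with earlier results of these data known. The named transcripts are the 4 markers, any with their component numbers, and the closest in pattern to each. Other marker genes were listed by symbol but could not be matched to identifiers. Figures were drawn with matplotlib 3.10.9.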

Additional observations from a re-analysis of the deposited data

Results flagged for a closer look

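In 36 sets of 4 libraries (levels and ratios by group), the highest or lowest library was compared with its nearest neighbour, and chance marks about 1 set in 20. The check marked 1 set. The log2 ratio of dd_Smed_v6_1566_1_1 to pc2 was 0.06 in EV-injected replicate 4, against 0.10 to 0.11 in the other EV-injected libraries, and this gap made up 0.845 of the range over the 4.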

How the results depend on the processing

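For agat-1, the rises against uninjected tails held in all 24 alternatives, at 0.46 to 0.55 with EVs and 0.32 to 0.41 with buffer (log2), and EV-injected against buffer-injected tails gave a call in 0 of 24. The other 3 markers were called in 0 of 24 alternatives in each comparison. Log2 fold changes that turned sign were all near 0 and not called, and the cause was not tested. For chat between EV-injected and buffer-injected tails they were 0.00052 with DESeq2 size factors, 0.0064 with upper-quartile factors, 0.017 with totals only, 0.0024 without a filter, 0.0011 with DESeq2, 0.0033 with limma-voom, 0.0065 with the 8 libraries compared and 0.059 with run 2 alone. With totals only, colF-2 had 0.0035 and dd_Smed_v6_1566_1_1 0.0039 there, and with run 2 alone dd_Smed_v6_1566_1_1 had 0.0037. For pc2 in EV-injected against uninjected tails they were −0.025 with upper-quartile factors and −0.0043 with run 1 alone. With a library left out, values ran from −0.045 to 0.032 for colF-2, −0.047 to 0.027 for chat and −0.027 to 0.0090 for dd_Smed_v6_1566_1_1 in EV-injected against buffer-injected tails, and from −0.019 to 0.041 for pc2 in EV-injected against uninjected tails. The calls of dd_Smed_v6_1566_1_1 with EVs and with buffer also ended with upper-quartile factors (edgeR adjusted p = 0.0941 and 0.0776), run 1 alone (0.0907 and 0.0501) and run 2 alone (0.229 and 0.266), and with EVs without a filter (0.0556).

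Differences in log2 ratios that turned sign were for colF-2 over pc2 in buffer-injected against uninjected tails (0.0068 with run 1 alone, −0.078 to 0.046 with a library left out), for colF-2 over chat in EV-injected against buffer-injected tails (0.020 with run 1 alone, 0.037 with medians, −0.062 to 0.080), in EV-injected against uninjected tails (0.026 with run 2 alone, −0.062 to 0.058) and in buffer-injected against uninjected tails (−0.044 with run 1 alone, −0.050 with medians, −0.083 to 0.069), and for pc2 over chat in buffer-injected against uninjected tails (−0.051 with run 1 alone, −0.024 to 0.041). None of these was called. With a library left out the smallest exact permutation p is 0.0571, and with the replicate block 0.125, so neither could pass. The test on medians could not pass either, because exchanging the closest libraries of separated groups leaves both medians unchanged.

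Over all transcripts, the 21 calls in EV-injected against buffer-injected tails became 143 with DESeq2, 45 with a robust fit, 6 with the 8 libraries compared, 39 with the replicate block, 8 with run 2 alone, and 0 to 51 with a library left out. With run 2 alone, which is shallower, EV-injected against uninjected tails had 3537 calls in place of 5452, and buffer-injected against uninjected tails 2993 in place of 4659. The block changed no call of a marker. Pairing by replicate number was not shown: deviations of same-numbered libraries correlated at −0.0204 to 0.139, not above 0.1 in every pair, although 6 of 12 libraries had their best partner under their own number.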
